A study of Mus musculus with 12 samples.

Results

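The ribosomal S6 kinases are 8 genes in the mouse, and they were followed here across wild-type and Pak1-null embryonic fibroblasts, with and without ionising radiation. Of the 8 genes, 4 had a probe set annotated with that gene symbol alone, namely Rps6ka6, Rps6ka3, Rps6ka5 and Rps6kb2, each with 1 probe set of the 16755 on the arrays. In all, 14860 genes had such a probe set. Rps6ka1, Rps6ka2, Rps6ka4 and Rps6kb1 were not analysed here. The family was chosen by a measured value, the log2 difference of Rps6ka6 between KO and WT cells, so the KO against WT values of the family are given as a description, without a test.

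The fibroblasts came from day 13.5 embryos of C57Bl6J background. WT cells carried intact Pak1, and KO cells were Pak1-/- cells from a whole-body knockout. Both were immortalised with SV40 T antigen, a viral protein that can inactivate p53 and Rb. Its activity in the 4 groups was not measured. WT-IR and KO-IR are the same kinds of cell after ionising radiation, whose total dose and time before harvest no source used here gives. Each group had 3 arrays, labelled as biological replicates with nothing on whether they were separate embryos or cultures, so p-values measure the spread between these samples. The deposited values are log2 levels centred on the median of each probe set over the 12 arrays. A value of 0 is therefore the middle array of that gene, and neither an absolute level nor a comparison of levels between genes can be read from it. Whether a marker of the labelled cell type is present or absent cannot be read either, and Pak1 itself was not analysed here.

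S6 kinases are serine/threonine kinases named after ribosomal protein S6, a substrate that many of them share. The RSK enzymes, which include RSK2 (Rps6ka3) and RSK4 (Rps6ka6), phosphorylate factors of transcription, translation and survival. RSK2 is switched on by ERK and the phosphoinositide-dependent kinase PDK1. RSK4 differs from its relatives in being largely active without growth factors in cultured human cells. The MSK enzymes, such as MSK1 (Rps6ka5), answer to ERK and p38 and phosphorylate CREB and histone H3 in the nucleus. The S6K enzymes, such as S6K2 (Rps6kb2), lie downstream of mTORC1, the nutrient-sensing kinase complex that drives protein synthesis.

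Promoter sequences are shown for Rps6ka6 and Rps6ka5 because these genes moved in opposite directions between the genotypes. RefSeq windows on GRCm38.p6, from 250 bases before to 50 bases after a transcription start, were found for Rps6ka6 and Rps6ka5 but not for the other 2 measured genes. Rps6ka6 has 2 annotated starts on the minus strand of chromosome X, at chrX:111537910-111538209 and chrX:111463448-111463747. The Rps6ka5 window lies on the minus strand at chr12:100725071-100725370. The sequences run 5′ to 3′ on the gene's strand, and capitals mark the TATA box (TATAAA), the GC box (GGGCGG) and the CCAAT box (CCAAT), each searched on both strands.
Rps6ka6, first start: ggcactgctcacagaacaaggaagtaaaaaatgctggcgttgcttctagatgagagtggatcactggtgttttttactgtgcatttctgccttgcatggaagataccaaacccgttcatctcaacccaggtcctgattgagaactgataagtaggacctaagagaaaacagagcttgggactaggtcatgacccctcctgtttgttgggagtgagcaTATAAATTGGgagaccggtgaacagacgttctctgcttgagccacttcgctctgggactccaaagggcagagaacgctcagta
Rps6ka6, second start: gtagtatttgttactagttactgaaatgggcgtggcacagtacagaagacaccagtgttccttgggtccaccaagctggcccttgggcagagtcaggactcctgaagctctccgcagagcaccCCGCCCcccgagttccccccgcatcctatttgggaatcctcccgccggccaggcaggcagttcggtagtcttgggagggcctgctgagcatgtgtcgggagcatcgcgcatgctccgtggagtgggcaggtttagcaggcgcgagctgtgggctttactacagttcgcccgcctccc
Rps6ka5: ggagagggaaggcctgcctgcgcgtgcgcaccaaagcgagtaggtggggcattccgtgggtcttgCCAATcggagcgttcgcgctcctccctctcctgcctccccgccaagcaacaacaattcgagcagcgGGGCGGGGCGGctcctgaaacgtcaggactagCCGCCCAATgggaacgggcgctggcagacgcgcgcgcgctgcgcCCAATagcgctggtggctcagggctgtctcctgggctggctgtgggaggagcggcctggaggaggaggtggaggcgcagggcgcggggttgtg
The first Rps6ka6 window held 6 CG steps and 48% G and C, with 1 TATA box that begins 33 bases before the start and overlaps a CCAAT box read on the other strand. The second Rps6ka6 window held 16 CG steps, 61% G and C and 1 GC box. The Rps6ka5 window held 29 CG steps, 69.3% G and C, 3 GC boxes and 3 CCAAT boxes, with neighbouring boxes overlapping in places. No window of these held the cAMP response element TGACGTCA. Among 32851 promoter windows of the reference the median was 7 CG steps, and 13.6% held a TATA box, 35.7% a GC box, 37.4% a CCAAT box and 1.79% a cAMP response element. These matches describe the letters only, and the arrays gave 1 value for Rps6ka6, so its starts were not measured apart.

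Rps6ka6 was high in all 6 arrays of WT genotype and low in all 6 arrays of KO genotype. Its log2 level was 2.15, 2.12 and 2.12 in the WT arrays and -2.31, -2.12 and -2.33 in the KO arrays. After irradiation it was 2.53, 2.32 and 2.37 in the WT-IR arrays and -2.14, -2.21 and -2.20 in the KO-IR arrays. No KO array came near any WT array, with or without irradiation.

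The unirradiated cells give the contrast that led to the choice of the family. In WT the log2 level of Rps6ka6 averaged 2.13 ± 0.015 (SD, n = 3), whereas in KO it averaged -2.25 ± 0.11 (SD, n = 3). The difference was -4.38, or 20.9-fold lower in KO. This was the lowest difference of all 16755 probe sets, and next came Igfbp3, whose protein carries insulin-like growth factors, at -3.65. Of the 4 measured kinases, 3 had KO and WT arrays that did not overlap, against 51.1% of all probe sets, and only Rps6ka6 was at least 2-fold lower, against 1.98% of all probe sets. Rps6ka5 and Rps6kb2 were 1.34-fold and 1.35-fold higher in KO, and Rps6ka3 differed by 0.016 on the log2 scale with overlapping arrays.

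**Figure D1:**
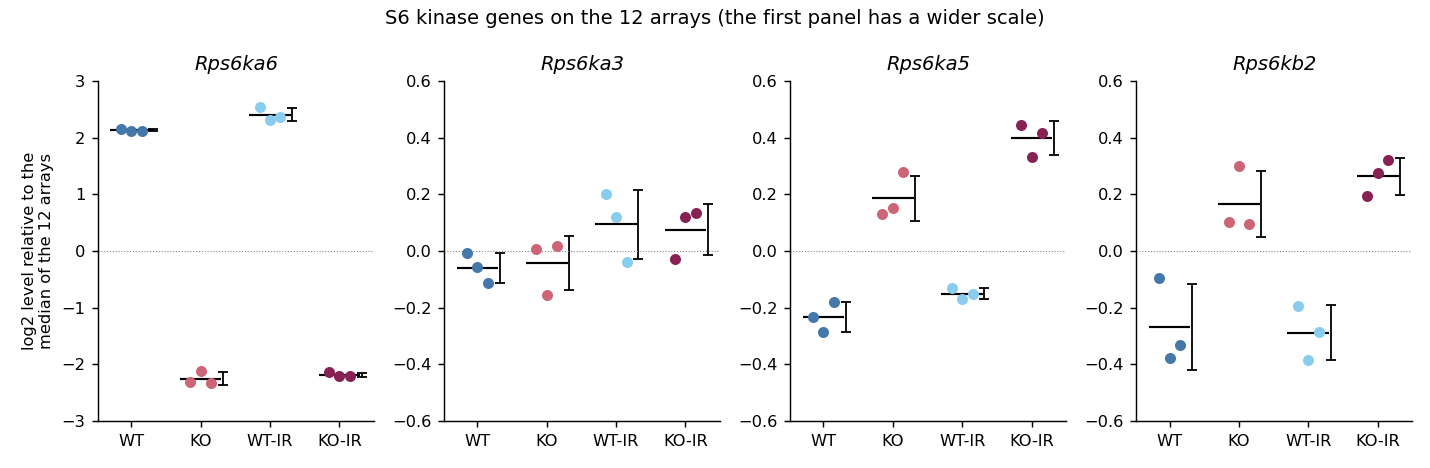
Log2 level of each measured S6 kinase gene relative to the median of the 12 arrays, by group (WT, KO, WT-IR, KO-IR). Points are arrays, the horizontal line is the group mean and the bar is 1 SD (n = 3); Rps6ka6 lies above 2.1 in every WT and WT-IR array and below -2.1 in every KO and KO-IR array, on a wider axis than the other genes.

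The irradiated cells ask whether the genotype difference is also found after DNA damage, in arrays that the choice of the family did not use. The result for Rps6ka6 was nevertheless known beforehand and is no independent support. Rps6ka6 was 24.1-fold lower in KO-IR than in WT-IR, with a log2 change of -4.59 (SE 0.063, 95% interval -4.73 to -4.45, limma adjusted p = 2.60e-13). This again was the lowest of all 16755 probe sets, with Igfbp3 next at -3.73. Of the 4 measured kinases, 3 passed the limma test at an adjusted p under 0.05, against 44.6% of all probe sets. Of these, 2 rose, against 23.4% of all probe sets, and 1 fell, against 21.2%. Only Rps6ka6 passed with a change of at least 2-fold, against 5.06% of all probe sets. With 4 genes and so many calls among all probe sets, these counts show nothing particular to the family. Quantile normalization set Rps6ka6 at 37.4-fold lower, in irradiated and unirradiated cells alike. That method sets values by rank, and under it Rps6ka6 changed by 0 with radiation in both genotypes. The equal folds are therefore fixed by rank and are no second estimate. In bulk RNA, fewer cells that express a gene and less RNA per cell cannot be told apart.

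Rps6ka5, the gene of the nuclear kinase MSK1, moved the other way. Its log2 level was -0.23, -0.29 and -0.18 in WT, 0.13, 0.15 and 0.28 in KO, -0.13, -0.17 and -0.15 in WT-IR, and 0.45, 0.33 and 0.42 in KO-IR. Every array of KO genotype lay above every array of WT genotype, and no neighbouring groups overlapped in the order KO-IR, KO, WT-IR, WT. KO-IR exceeded WT-IR by 0.55 (SE 0.049, 95% interval 0.44 to 0.66), or 1.46-fold, with a limma adjusted p of 1.43e-06.

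Rps6kb2, which encodes the mTORC1-dependent kinase S6K2, showed a similar step between genotypes. Its log2 level was -0.094, -0.38 and -0.33 in WT, 0.10, 0.30 and 0.094 in KO, -0.19, -0.39 and -0.28 in WT-IR, and 0.19, 0.28 and 0.32 in KO-IR. All arrays of KO genotype were above 0 and all arrays of WT genotype below it, whereas the irradiated and unirradiated arrays of a genotype overlapped. KO-IR exceeded WT-IR by 0.55 (SE 0.082, 95% interval 0.37 to 0.73), or 1.47-fold, with a limma adjusted p of 0.000118.

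Rps6ka3, the gene of RSK2 and like Rps6ka6 a gene of the X chromosome, gave no detectable difference between genotypes. Its log2 level was -0.0078, -0.056 and -0.11 in WT, 0.0078, -0.15 and 0.018 in KO, 0.20, 0.12 and -0.038 in WT-IR, and -0.030, 0.12 and 0.14 in KO-IR. All neighbouring groups overlapped. The KO-IR minus WT-IR change was -0.019 on the log2 scale, with a 95% interval of -0.17 to 0.13 that leaves out changes of the size seen in Rps6ka5 and Rps6kb2 (limma adjusted p = 0.882).

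With radiation the log2 levels of the S6 kinase genes changed by 0.28 at most. These comparisons share their arrays with the genotype comparisons above. For Rps6ka6 they use the WT or KO arrays whose difference chose the family. Its responses are therefore a description, and no test is read from them. In WT cells Rps6ka6 was 1.21-fold higher after irradiation, a log2 change of 0.28, and the 3 WT-IR arrays lay above the 3 WT arrays. Quantile normalization gave a change of 0, because Rps6ka6 is the extreme probe set of these arrays. Rps6ka3, Rps6ka5 and Rps6kb2 did not pass the limma test in WT cells, where 2.48% of all probe sets passed.

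In KO cells Rps6ka5 passed the limma test, as did 6.30% of all probe sets. It was 1.16-fold higher in KO-IR than in KO, a log2 change of 0.21 (95% interval 0.11 to 0.32, limma adjusted p = 0.0247). The call was lost with the methods' t-test (adjusted p = 0.267), in a fit of only the arrays compared (0.119), and without KO replicate 1 (0.103), KO replicate 2 (0.085), KO-IR replicate 1 (0.0532) or KO-IR replicate 3 (0.0868). Rps6ka6 itself changed by 0.069 in KO cells, with overlapping arrays, again as a description.

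The remaining responses to radiation did not pass. Rps6ka3 differed by 0.15 in WT cells (95% interval -0.00077 to 0.31, limma adjusted p = 0.279) and by 0.12 in KO cells (adjusted p = 0.419). Rps6kb2 differed by -0.019 in WT cells (95% interval -0.20 to 0.16) and by 0.098 in KO cells (95% interval -0.081 to 0.28). For Rps6ka5 in WT cells the change was 0.084 (95% interval -0.023 to 0.19, limma adjusted p = 0.400), although the WT-IR and WT arrays did not overlap.

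The interaction compares the radiation response of KO cells with that of WT cells. By limma it did not pass for Rps6ka5, Rps6kb2 or Rps6ka3 at an adjusted p under 0.05, where 1.37% of all probe sets passed. Nor did it pass for them at an unadjusted p under 0.05. The interaction of Rps6ka6 was -0.21 on the log2 scale. This value contains the KO minus WT difference by which the family was chosen, so it is a description and no test is read from it. The response of Rps6ka5 differed by 0.13 (95% interval -0.023 to 0.28), that of Rps6kb2 by 0.12 (95% interval -0.14 to 0.37) and that of Rps6ka3 by -0.035 (95% interval -0.25 to 0.18).

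**Figure D2:**
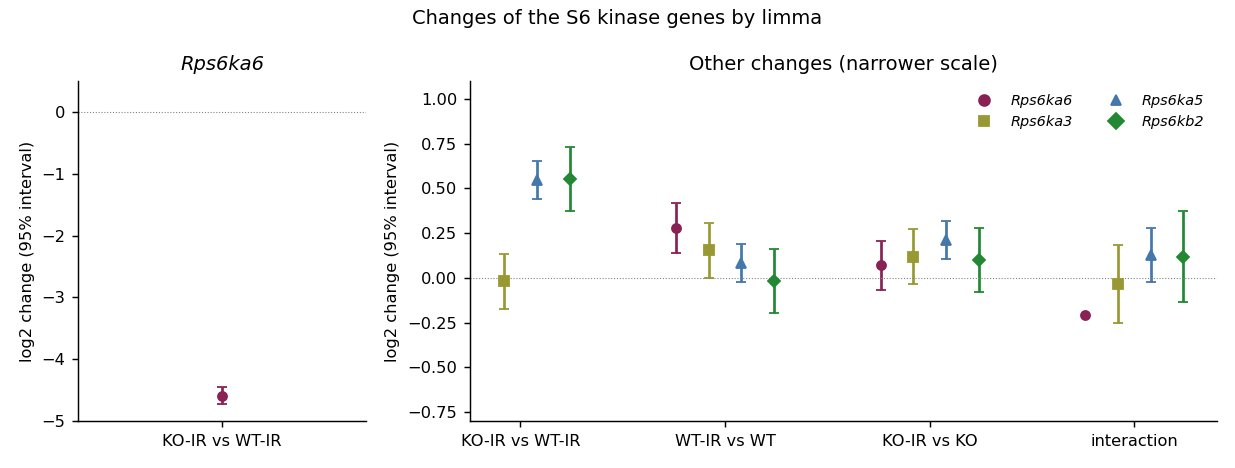
Log2 change of each measured S6 kinase gene by limma with its 95% interval, for the genotypes after irradiation, for irradiation within each genotype and for the interaction, which for Rps6ka6 contains the difference that chose the family and is drawn without an interval. No test is read from the intervals of Rps6ka6 for irradiation within each genotype. Rps6ka6 in KO-IR vs WT-IR has its own panel at -4.59; the other changes lie between -0.21 and 0.55, and every interval of Rps6ka3 takes in 0.

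The genes whose pattern over the 12 arrays was most like that of Rps6ka6, by root mean square distance of the log2 values, were Igfbp3 (0.420), Sox2 (0.562), Has2 (0.584), Tgfbi (0.590) and Eif2s3y (0.609). Sox2 is a transcription factor of stem and neural progenitor cells, Has2 makes hyaluronan, Tgfbi is a matrix protein induced by TGF-beta, and Eif2s3y is a Y-linked translation initiation factor gene. All 5 were high in every array of WT genotype and low in every array of KO genotype, and their KO-IR minus WT-IR log2 changes lay between -3.73 and -3.29. Being chosen for likeness to Rps6ka6, these genes are a description only.

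**Figure D3:**
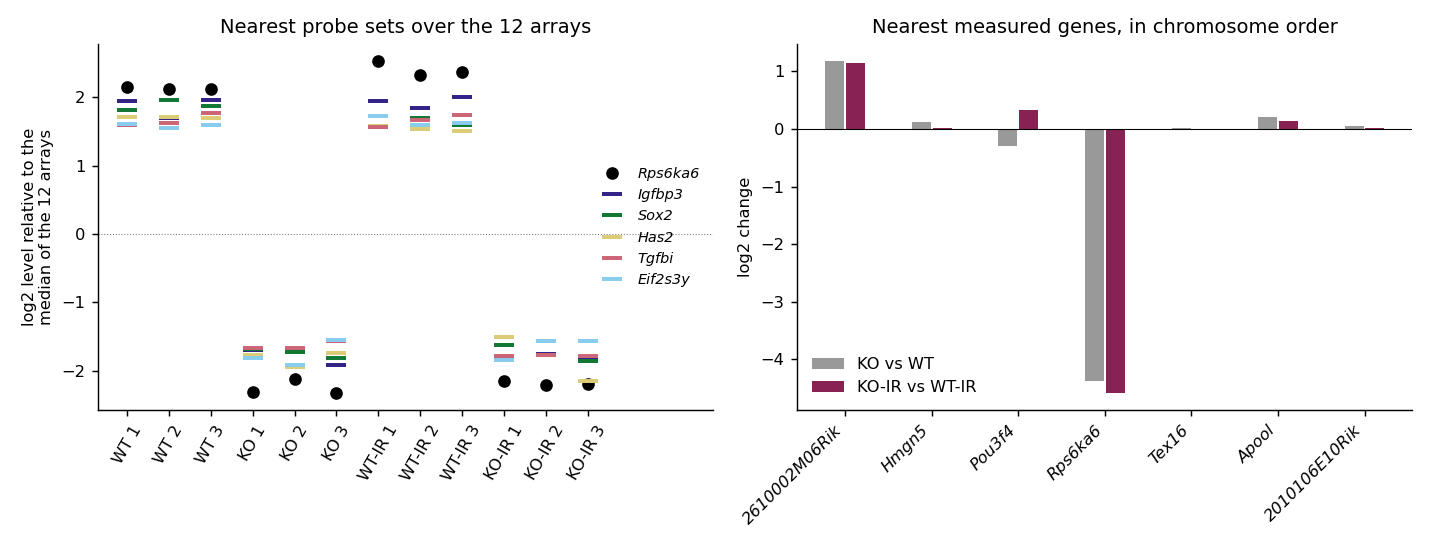
Left, log2 level of Rps6ka6 and of the 5 genes nearest to it on each of the 12 arrays, all above 1.5 in the WT and WT-IR arrays and below -1.5 in the KO and KO-IR arrays. Right, log2 change of Rps6ka6 and of the 3 nearest measured genes on either side of it on the X chromosome, drawn in chromosome order, between genotypes without (grey) and with irradiation (purple); Rps6ka6 alone is far below 0.

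No measured neighbour of Rps6ka6 on the X chromosome had a fall of its size. These genes lay 0.36 to 3.57 Mb from it, and nearer genes were not analysed here. Of the 3 nearest measured genes on either side in the GRCm38.p6 order, 2 passed the limma test in KO-IR vs WT-IR and both were higher, a share below the 44.6% of all probe sets. They were 2610002M06Rik, with a log2 change of 1.15 (adjusted p = 2.09e-07), and Pou3f4, a neural transcription factor gene, at 0.32 (adjusted p = 0.0362). The call of Pou3f4 was lost in 8 of 19 alternatives, among them without WT-IR replicate 1 (adjusted p = 0.146), WT-IR replicate 2 (0.0910), KO-IR replicate 1 (0.133) or KO-IR replicate 2 (0.124). In unirradiated cells Pou3f4 went the other way, with a KO minus WT difference of -0.30 and arrays that did not overlap (0.049, 0.22 and 0.23 in WT, -0.042, -0.088 and -0.28 in KO). The other neighbours differed there by 0.019 to 1.19, all higher in KO. In KO-IR vs WT-IR Hmgn5, Tex16, Apool and 2010106E10Rik did not pass, with log2 changes of 0.021, 0.0072, 0.14 and 0.022.

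Other X- and Y-linked genes also differed between the cells of the 2 genotypes. Of 9 genes of a sex-linked list, 6 were measured and 5 passed in KO-IR vs WT-IR, where 44.6% of all probe sets passed. The Y-linked genes Eif2s3y fell by 3.30 on the log2 scale and Kdm5d fell by 2.10, while X-linked Kdm6a rose by 1.05, Eif2s3x rose by 0.19 and Kdm5c fell by 0.17. Ddx3x changed by -0.044 and did not pass, and Xist, Ddx3y and Uty were not analysed here. Rps6ka6 is X-linked, and the loss of Pak1 cannot be told apart from a difference in the sex chromosomes or the origin of the cells, since each genotype is known here only as WT or Pak1-/- cells.

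Some markers of cell types differed between the genotypes in KO-IR vs WT-IR, where 44.6% of all probe sets passed, and the shares of the marker lists ran from below to above that background. Among 12 fibroblast markers 9 passed (4 higher, 5 lower), and the mean log2 level of the list ran from 0.13 to 0.14 over the WT-IR arrays and from -0.23 to -0.22 over the KO-IR arrays. The markers did not move together, and their median log2 change was -0.0046. Pdgfra (-2.74) and Col3a1 (-1.33) were among the lower ones, Thy1 (1.32) and Col1a1 (0.50) among the higher. Of 5 smooth muscle markers 3 passed, all higher, with Acta2 at 3.08, Tagln at 2.48 and Des at 0.41, while Myh11 (-0.012) and Cnn1 (-0.15) did not pass. The mean level of this list, to which Acta2 and Tagln contribute most, ran from -0.62 to -0.61 in WT-IR and from 0.54 to 0.57 in KO-IR. Of 5 measured neural and Schwann markers 3 passed (Nes higher at 1.69, Sox2 lower at -3.29 and Map2 lower at -0.34), and the list ran from 0.15 to 0.20 in WT-IR and from -0.25 to -0.096 in KO-IR. Sox2 contributed most to this fall, and the median log2 change of the list was 0.027. Of 4 macrophage markers 2 passed, Cd68 higher at 0.31 and Csf1r lower at -2.37, while Ptprc (-0.0031) and Adgre1 (0.013) did not pass. The macrophage list ran from 0.26 to 0.33 in WT-IR and from -0.23 to -0.20 in KO-IR, a fall that came from Csf1r alone. Of 3 epithelial markers 1 was higher, and the list ran from -0.071 to -0.018 in WT-IR and from 0.043 to 0.14 in KO-IR. Of 4 endothelial markers 1 was higher, and the list ran from -0.034 to -0.011 and from -0.0026 to 0.043. The part of these differences in the S6 kinase results was not tested.

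The partners of the S6 kinases were taken from a list of 71 genes in 4 roles, of which 56 genes were measured by 58 probe sets. In KO-IR vs WT-IR 37 of the 58 probe sets passed the limma test, 19 higher and 18 lower, and 5 passed with at least a 2-fold change. The share was 63.8%, against 44.6% of all probe sets (23.4% higher, 21.2% lower and 5.06% with a 2-fold change), and no test of the list was made. The median log2 change was 0.0054 over the list and 0.0063 over all probe sets, so the calls went in both directions about equally.

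Of the 9 measured kinases upstream of the family, 7 passed, 5 higher and 2 lower, against 44.6% of all probe sets. Map2k6, the gene of a kinase that activates p38, fell by 2.21 on the log2 scale (SE 0.081, adjusted p = 5.97e-10), from 1.09 ± 0.065 (SD, n = 3) in WT-IR to -1.12 ± 0.16 (SD, n = 3) in KO-IR. Araf, a RAF kinase gene at the head of the ERK cascade, rose by 0.66 (adjusted p = 4.74e-09). Pdpk1, which encodes PDK1, rose by 0.58 (adjusted p = 2.36e-07), and Map2k1, which encodes the ERK activator MEK1, rose by 0.26 (adjusted p = 8.53e-05).

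Of 14 measured genes of the mTORC1 arm, which controls the S6K enzymes, 8 passed, 4 higher and 4 lower. The share was 57.1%, against 44.6% of all probe sets. Deptor, the gene of an inhibitory partner of mTOR, stood at 1.33 ± 0.052 (SD, n = 3) in WT-IR and at -1.18 ± 0.017 (SD, n = 3) in KO-IR and fell by 2.51 (SE 0.052, adjusted p = 6.11e-12). Rptor, whose protein Raptor brings substrates to mTORC1, fell by 0.55 (adjusted p = 4.23e-08). Mlst8, a subunit gene of the mTOR complexes, rose by 0.44 (adjusted p = 2.18e-06), and Pik3cb, a catalytic subunit gene of PI3 kinase, rose by 0.37 (adjusted p = 9.78e-06).

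Among genes that the list places under substrates, 10 of 19 probe sets passed, 4 higher and 6 lower. The share of 52.6% was near the 44.6% of all probe sets. A place in this role does not make a gene's product, such as that of Polr1b, an established substrate. Polr1b, a subunit gene of RNA polymerase I, fell by 1.42 (SE 0.075, adjusted p = 1.40e-08). Cebpb, a transcription factor gene, fell by 0.58 (adjusted p = 2.48e-07), Irs1, an adaptor gene of insulin signalling, fell by 0.56 (adjusted p = 7.87e-06), and Nr4a1, an immediate-early nuclear receptor gene, fell by 0.41 (adjusted p = 1.59e-05). These are transcript levels, and phosphorylation was not measured.

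Regulators and relatives had 12 of 16 probe sets past the test, 6 in each direction, against 44.6% of all probe sets. Of the SGK kinase genes, relatives of the S6 kinase genes, 1 rose, 1 fell and Sgk2 did not pass (-0.019, adjusted p = 0.802). Sgk3 stood at -1.12 ± 0.10 (SD, n = 3) in WT-IR and 1.23 ± 0.19 (SD, n = 3) in KO-IR and rose by 2.35 (SE 0.082, adjusted p = 4.33e-10). Sgk1 fell by 1.19 (SE 0.048, adjusted p = 1.33e-09). Phlpp1, the gene of a phosphatase that acts on AKT and S6K1, rose by 0.80 (adjusted p = 1.34e-07), and Spry1, a feedback inhibitor gene of ERK signalling, fell by 0.65 (adjusted p = 3.57e-07). The S6 kinase-like genes Rps6kc1 and Rps6kl1 did not pass, with log2 changes of 0.012 and -0.0038.

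**Figure D4:**
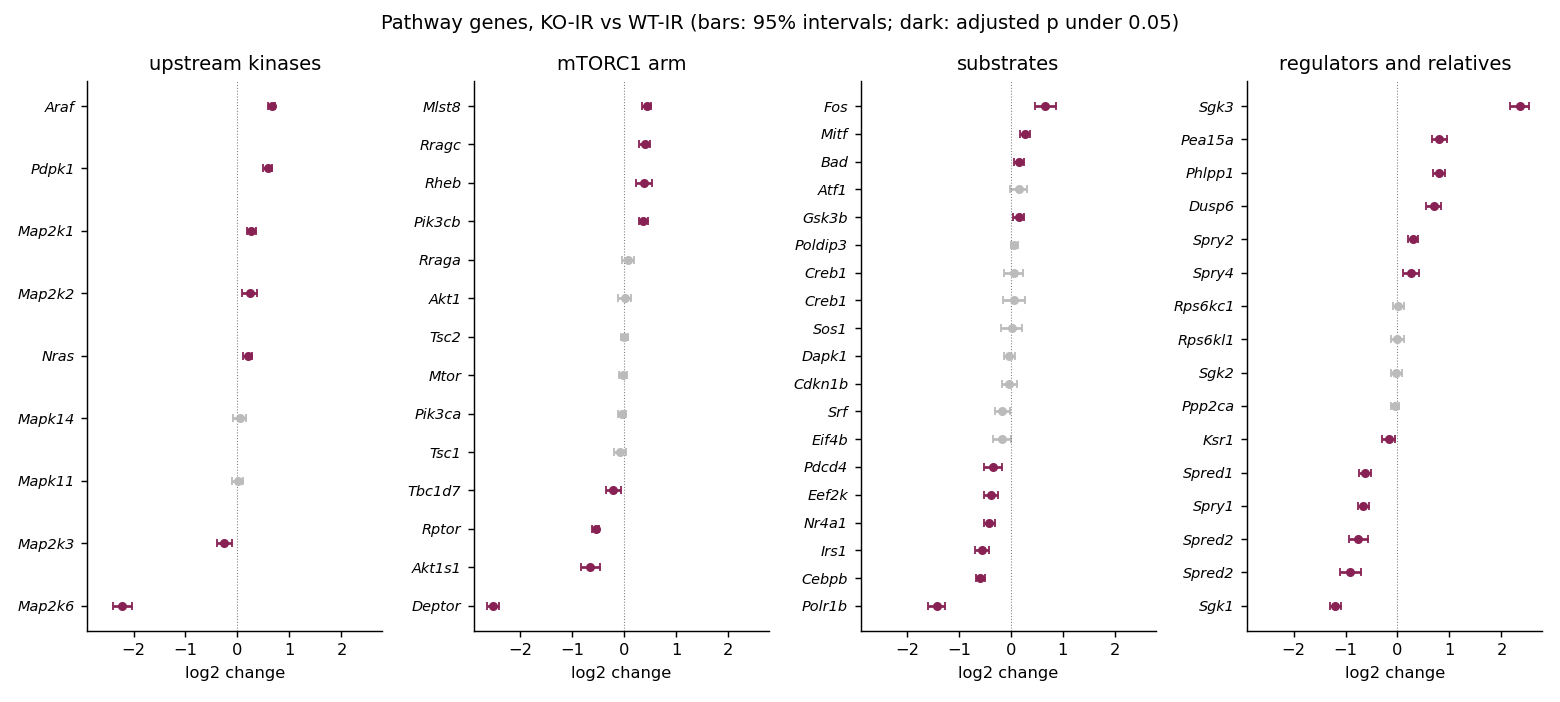
Log2 change, KO-IR vs WT-IR, with 95% intervals by limma for the 58 probe sets of the pathway list, in 4 panels by role; dark points have an adjusted p under 0.05. Deptor, Map2k6 and Polr1b lie furthest to the left and Sgk3 furthest to the right, and 19 dark points are above 0 and 18 below it.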

How the data were processed

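RNA from 12 samples of SV40-immortalised fibroblasts, 3 for each of the 4 groups, was hybridised by the authors to Affymetrix Mouse Exon 1.0 ST arrays. The deposited log2 values were made by the authors in Gene Spring GX 10.0.2, per the submitters' notes, and each probe set is centred on its median over the 12 arrays. The base of the logarithm is not stated in the sources used here and was taken as 2. Array medians lay between -0.020 and 0.018 and the SD of an array between 0.242 and 0.288. Mean correlations with the own group were 0.836 to 0.917. For arrays the number of arrays limits precision, since no counts exist. The deposited tables hold no comparison columns.

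A limma 3.58.1 model in R 4.3.3 (lmFit and eBayes) with a mean for each of 4 groups was fitted to all 16755 probe sets, with 8 residual degrees of freedom and 3.48 from the prior. The Benjamini-Hochberg adjustment took in every probe set of a comparison. The scripts were tested on simulated data. Of the probe sets 14996 had 1 gene symbol, 1019 several and 740 none, and 14941 of the first matched the GRCm38.p6 gene table. Alternatives were the methods' t-test, a fit of only the arrays compared, a replicate block, quantile normalization, median centring, probe sets of 1 symbol only, the robust eBayes option, an unadjusted threshold and leaving out each array.

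The members and lists were chosen with earlier results of these data known. Named genes were every member, the 4 pathway genes of each role with the smallest adjusted p in KO-IR vs WT-IR, the 5 probe sets nearest to Rps6ka6 by root mean square distance, the 3 nearest measured genes on either side of it and the sex-linked list. Cell type markers and the genes named among the other observations were chosen by no such rule, the latter after their values were seen. Promoter windows came from RefSeq.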

Additional observations from a re-analysis of the deposited data

How the results depend on the processing

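In KO-IR vs WT-IR, the counts of 3 kinase genes past the adjusted p, of 1 with a 2-fold change, and of 37 pathway probe sets stayed within 1.5 times under all alternatives. Quantile normalization moved Rps6ka6 to -5.22 in KO vs WT and in KO-IR vs WT-IR, or 37.4-fold, a value fixed by its rank on the arrays. Calls for radiation moved more. For the kinase genes no count is followed in WT-IR vs WT, because no test is read from Rps6ka6 there. Rps6ka3, Rps6ka5 and Rps6kb2 each passed there in 0 of 19 alternatives. In KO-IR vs KO the 1 call was that of Rps6ka5, where 6.30% of all probe sets passed. The count became 0 with the methods' t-test and with only the arrays compared, and ran from 0 to 1 with 1 array left out. The interactions of Rps6ka5, Rps6kb2 and Rps6ka3 did not pass at an unadjusted p either. For the pathway list, 4 calls in WT-IR vs WT became 0 with the t-test, 7 with only the arrays compared, 7 with quantile normalization, 22 at an unadjusted p and 1 to 9 with 1 array left out, the 9 without KO-IR replicate 1. The 6 calls in KO-IR vs KO became 1 with the t-test, 3 with only the arrays compared and 18 at an unadjusted p; the interaction count of 0 became 15 at an unadjusted p and 0 to 1 with 1 array left out. The cause was not tested.

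With the replicate number as a block, WT-IR vs WT gave 2 pathway probe sets. Same-numbered arrays deviated together in 3 of 18 pairs at r over 0.1 (range -0.144 to 0.211), so the numbers were not taken as pairs.

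Small changes that did not pass changed sign. Rps6ka3 in KO-IR vs WT-IR ran from -0.086 to 0.035 and its interaction from -0.10 to 0.019 with 1 array left out, Rps6kb2 in WT-IR vs WT from -0.074 to 0.068 (0.010 under quantile normalization), Hmgn5 from -0.065 to 0.084 and Tex16 from -0.013 to 0.031 (-0.0048 under quantile normalization).

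With 3 arrays a group, changes such as those of Rps6ka3 after radiation could not be resolved from 0.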

Other observations

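Few of the S6 kinase partners changed with radiation, and the genes named here were chosen after their values were seen. In WT cells 4 of the 58 probe sets of the pathway list passed the limma test (6.90%, against 2.48% of all probe sets), and all 4 fell. Most calls fell there, 256 of the 385 among all probe sets with 1 symbol. The 4 were Spry2 (-0.45), Dusp6 (-0.31), Spry1 (-0.21) and Cebpb (-0.19), the first 3 of which encode feedback inhibitors of receptor tyrosine kinase and ERK signalling. Such genes did not move together. The other Spry and Spred genes of the list did not pass, with Spry4 at 0.043, Spred1 at -0.068 and the Spred2 probe sets at 0.31 and 0.27. In KO cells 6 passed (10.3%, against 6.30% of all probe sets): Nr4a1 (0.48), Tsc1 (0.21) and Mlst8 (0.20) rose, while Spry2 (-0.62), Irs1 (-0.38) and Pik3cb (-0.15) fell. Spry2 passed in both genotypes, with an adjusted p of 0.000425 in WT cells and 9.04e-06 in KO cells, but was lost in WT cells with the methods' t-test (adjusted p = 0.0818). Of 19 alternatives, the call was lost in 15 for Pik3cb, 12 for Spry1, 11 for Tsc1, 10 for Cebpb, 7 for Dusp6 and 4 for Mlst8, many of them fits without 1 array, and in 1 each for Irs1 and Nr4a1. The interaction passed for 0 of the 58 probe sets by limma, and for 15 at an unadjusted p under 0.05, so a difference in response between the genotypes was not shown for any of these genes.

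Over the X chromosome as a whole, 245 of 473 probe sets with 1 symbol passed in KO-IR vs WT-IR, 163 higher and 82 lower, with a median log2 change of 0.028. The share was 51.8%, against 45.7% of the 14996 probe sets with 1 symbol on all chromosomes, of which 3623 were higher and 3237 lower. Rps6ka6 was among the lower calls.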
